A study of Mus musculus with 3 samples.

Results

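Among all cells recovered, 2 clusters drawn by the authors stood out by the RNA of Ttr, which encodes the thyroid hormone carrier transthyretin. They are cluster 10 of the metastasis-bearing table and the naive cluster with the highest mean Ttr, which was cluster 9. Cluster 10 held 50 of 9581 cells and cluster 9 held 34 of 3874 cells. Together they made up 84 of 13455 table rows and 72 distinct barcodes, because 12 barcodes were members in both tables. Barcodes listed in both tables, 1138 over all cell types, were left out of each table unless stated. That left 37 cells of metastasis-bearing brains and 22 cells of naive brains.

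The choroid plexus is a fringe of tissue inside the brain ventricles that secretes cerebrospinal fluid. Its epithelial cells form the barrier between blood and that fluid, pump ions and water across it, and carry vitamins and thyroid hormone into the brain. The neighbouring ependymal cells line the ventricle walls and move the fluid with motile cilia. Neither cell type is a leukocyte.

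The brains came from female C57Bl/6 mice aged 2 to 3 months, with 2 brains in each of 4 groups. The groups were metastasis-bearing Cx3cr1-/- (homozygous), metastasis-bearing Cx3cr1+/- (heterozygous), naive Cx3cr1-/- and naive Cx3cr1+/-. Cx3cr1 encodes the receptor for fractalkine, and every mouse lacked at least 1 copy of it, so no group was wild type. Metastasis-bearing mice had received E0771 mammary tumour cells through the carotid artery about 2 weeks earlier. A single hemisphere was used per brain, dissociated with an enzyme kit after perfusion and enriched for immune cells on a Percoll gradient of 70, 37 and 30%. The 8 brains were tagged with hashtag antibodies and pooled with 35 antibodies for surface proteins into a single droplet preparation. Members found here are therefore cells that passed through an enrichment aimed at other cell types.

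The hashtag oligos are shown because they alone tie each cell to its brain. Each is 15 bases, as the metadata spell it, and the line gives the group, the brain number used below and the hashtag number.
metastasis-bearing homozygous 1, hashtag 7: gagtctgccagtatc
metastasis-bearing homozygous 2, hashtag 8: tatagaacgccaggc
metastasis-bearing heterozygous 1, hashtag 3: cttgccgcatgtcat
metastasis-bearing heterozygous 2, hashtag 4: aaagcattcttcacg
naive homozygous 1, hashtag 5: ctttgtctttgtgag
naive homozygous 2, hashtag 6: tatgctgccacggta
naive heterozygous 1, hashtag 1: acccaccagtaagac
naive heterozygous 2, hashtag 2: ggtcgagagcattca

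The label "brain immune cells" did not describe the members. Ptprc encodes the leukocyte surface protein CD45. It had a UMI (a barcoded RNA molecule) in 6 of 25 Ttr-high cells of metastasis-bearing brains and in 0 of 22 naive members. That 0 allows a share of up to 13.6% with cells pooled, a limit that leaves out the spread between brains. In cells outside the clusters Ptprc had a UMI in 61.4% of the metastasis-bearing and 86.4% of the naive table. At the median, members had more raw UMIs than other cells in every brain but metastasis-bearing homozygous brain 1 (38774 against 71749). Ttr-high cells had a median of 38774 raw UMIs in metastasis-bearing brains and 46927 in naive brains, while brain medians of all other cells lay between 6178 and 71749. The naive metadata placed 14 of 22 members in a CD45Low/CD11bNegative gate and 8 in a CD45Low/CD11bPositive gate. EGFP and mCherry, both present in the tables as features, had no UMI in any Ttr-high cell.

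Free Ttr RNA was widespread, so a Ttr UMI alone did not mark a member. Outside the clusters it was found in 47.6% of metastasis-bearing and 59.7% of naive cells, with medians of 0 and 1 corrected UMI. With all deposited cells, the mean of the chosen clusters was 2211 and 3201 corrected UMIs, and the next cluster had a mean of 3.83 in the metastasis-bearing and 5.59 in the naive table. Also with all deposited cells, at least 100 Ttr UMIs stood in 8 of 9531 and 7 of 3840 cells outside the clusters, the highest with 2017 and 1151. The clusters were chosen by Ttr, so these values are a description.

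The metastasis-bearing cluster held 2 kinds of cells. In 25 cells Ttr lay between 194 and 7507 corrected UMIs (median 3493) and Tmem212 was at 0. In the other 12 cells Tmem212 lay between 4 and 94 UMIs (median 34) and Ttr between 0 and 5. No cell had both at high levels. All 22 naive members were of the Ttr-high kind, with Ttr between 1261 and 5459 UMIs (median 4178). This split was seen in the values and then used, so it is described and not tested.

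**Figure D1:**
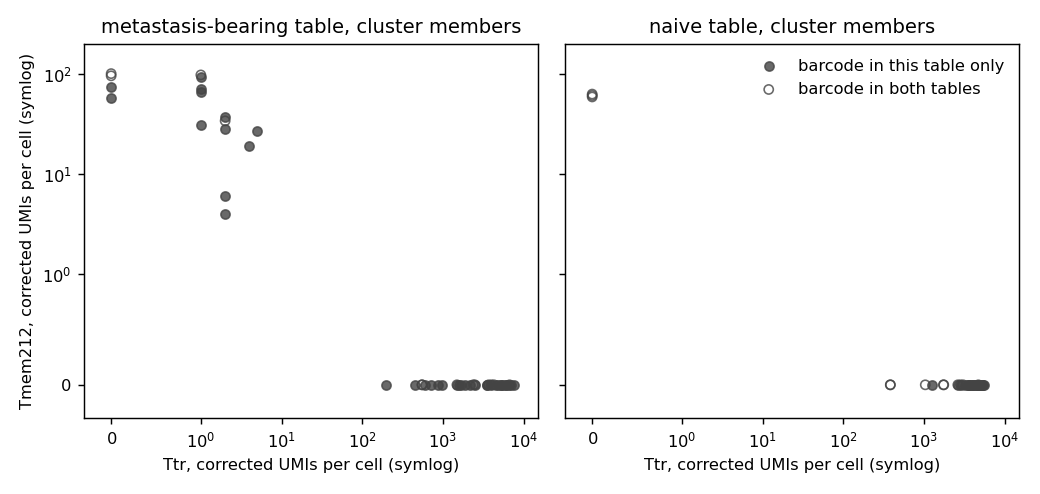
Tmem212 (y axis) against Ttr (x axis), corrected UMIs per cell on axes that are linear near 0 and logarithmic above, for members of the metastasis-bearing table (left) and of the naive table (right). Filled points are barcodes found in that table alone and open points are barcodes found in both. Tmem212 is above 0 only at Ttr counts of 5 or less, and the 3 such points in the naive panel are all open.

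Of the 5 markers named for the choroid plexus, 4 were found in nearly all Ttr-high cells, and Tmem212 in the other kind alone. Enpp2, which encodes autotaxin, had a UMI in 25 of 25 Ttr-high cells of metastasis-bearing brains and 22 of 22 of naive brains. Folr1, the folate receptor that carries folate into the fluid, did so in 24 of 25 and 22 of 22 cells. Kl, which encodes klotho, did so in 24 of 25 and 22 of 22. Tmem212 was at 0 in both by the way the cells were split. Further epithelial genes gave the same picture: the potassium channel gene Kcnj13 in 23 of 25 and 22 of 22, the homeobox gene Otx2 in 24 of 25 and 22 of 22, the prolactin receptor gene Prlr in 23 of 25 and 22 of 22, and the chloride channel gene Clic6 in 25 of 25 and 22 of 22. Enpp2 was found in 6.82% of metastasis-bearing and 7.81% of naive cells outside the clusters, at a median of 0.

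The 12 Tmem212-positive cells carried none of Kl, Kcnj13 and Prlr, which allows a share of up to 25% for each with cells pooled over brains. Other epithelial genes were found in part of these cells. Folr1 had a UMI in 9 of 12 (median 3.5 UMIs, against 20 in Ttr-high cells), Clic6 in 5, Otx2 in 4 and Enpp2 in 2. All 11 genes of the ependymal list were detected in the Tmem212-positive cells. Ccdc153, a gene of ciliated cells, had a UMI in 11 of 12 (median 34) against 0 of 25 Ttr-high cells. Foxj1, the transcription factor that switches on motile cilia genes, was found in 11 of 12 and in 15 of 25. Their summed ependymal list stood at 14973 CPM (corrected UMIs of the genes, with the cells' summed corrected UMIs scaled to 1000000), against 757 CPM in Ttr-high cells of the same brains. That list, like the motile cilium list below, holds Tmem212, the gene of the split, at 3140 against 0 CPM. Astrocyte genes shared by ependymal cells went the same way, with a list sum of 4304 against 79.0 CPM.

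Single genes showed how far the kinds lay apart. Gfap, a filament protein of astroglia, had 1835 CPM in Tmem212-positive cells and 0 in Ttr-high cells. The axonemal dynein gene Dnah5 had 305 and 0 CPM, and Fam183b had 1189 and 0 CPM. Nnat had 2981 and 2.7 CPM, and Rarres2, which encodes chemerin, had 4005 and 54.5 CPM. In the other direction Ttr stood at 128 and 230144 CPM, Enpp2 at 12.2 and 19388 CPM, and Ptgds, a prostaglandin synthase, at 6.1 and 2654 CPM. The motile cilium list was not silent in Ttr-high cells: 22 of its 32 genes passed 20 CPM, against 29 in Tmem212-positive cells. The data thus went against the cluster's label for these 12 cells, which are called Tmem212-positive below.

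Both metastasis-bearing heterozygous brains gave Tmem212-positive cells, and so did 1 homozygous brain. Counts were 2 and 0 in homozygous brains and 4 and 6 in heterozygous brains. With the barcodes of both tables kept they were 2 and 0 against 4 and 10. The kinds also differed in antibody tag UMIs, with medians of 11451 per Tmem212-positive cell and 1602 per Ttr-high cell. The 3 Tmem212-positive rows of the naive table carried 21 to 28 UMIs of naive hashtags and 10582 to 21235 UMIs of metastasis hashtags. Outside the naive cluster, 2 unshared cells had at least 3 UMIs of both Ccdc153 and Tmem212, against 0 outside the metastasis-bearing cluster.

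Ccdc153 has the letters of an X-box, a sequence bound by RFX transcription factors in cilium genes, before its start. The 250 bases before the start of Tmem212 itself held 0 matches to it. The stretch shown is from Ccdc153, a gene found in the Tmem212-positive kind. It covers the 250 bases upstream of the RefSeq start on GRCm38.p6, chr9:44240427-44240676, plus strand, with the match in capitals.
Ccdc153: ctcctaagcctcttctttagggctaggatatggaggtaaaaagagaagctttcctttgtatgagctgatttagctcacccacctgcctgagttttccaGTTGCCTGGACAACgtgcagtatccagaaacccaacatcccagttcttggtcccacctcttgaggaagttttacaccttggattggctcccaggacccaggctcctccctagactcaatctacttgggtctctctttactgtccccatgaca
The motif searched was GTTGCC, any 5 bases and AAC, on both strands, over windows that also take in 50 bases after the start. It stood in 154 of 27025 RefSeq promoters (0.570%), in 8 of 29 promoters of the motile cilium list (27.6%) and in 0 of 12 of the further choroid plexus genes. A match is a description of letters and not a bound site.

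Hashtag UMIs bear on the 12 barcodes that were members in both tables. Metastasis hashtags outnumbered naive ones in 10 of the 12, by at least 8.38 times and at the median 141 times. In the other 2 barcodes naive hashtags led, with 210 against 139 UMIs and 2612 against 454 UMIs. A further shared barcode, Tmem212-positive, was a member in the metastasis-bearing table alone and stood in cluster 1 of the naive table. Naive hashtags led there too, with 927 against 263 UMIs. These barcodes serve below as a check on the tables: the same cell was corrected separately in each.

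The members' share of all cells was compared between genotypes by an exact permutation test, which cannot give a p under 0.05 with 2 brains a group. In metastasis-bearing homozygous brains 7 of 2925 and 2 of 1554 cells were members, which is 0.239% (95% Wilson interval 0.116 to 0.493) and 0.129% (0.0353 to 0.468). In metastasis-bearing heterozygous brains 11 of 1354 and 17 of 2610 were, which is 0.812% (0.454 to 1.45) and 0.651% (0.407 to 1.04). Intervals cover counting error only.

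The 2 genotypes did not overlap in metastasis-bearing brains. The mean was 0.184 ± 0.0782% in homozygous and 0.732 ± 0.114% in heterozygous brains (SD, n = 2 each), a difference of -0.548 points. The two-sided exact permutation p was 0.333, the smallest that 2 against 2 brains can give. Without Tmem212-positive cells the difference was -0.319 points, and with at least 4 of 6 epithelial markers as the criterion in any cluster it was -0.287 points. The other cells of the brains also differed in depth. Their median raw UMIs were 71749 and 19683 in homozygous and 8172 and 7787 in heterozygous brains, and their part in the share was not tested. Against cells with a Ptprc UMI alone the means were 0.429 ± 0.267% in homozygous and 0.965 ± 0.305% in heterozygous brains, a difference of -0.535 points. The homozygous mean was then a larger part of the heterozygous one.

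In naive brains the genotypes overlapped. Homozygous brains had 6 of 337 and 7 of 905 members, which is 1.78% (0.818 to 3.83) and 0.773% (0.375 to 1.59). Heterozygous brains had 1 of 957 and 8 of 537, which is 0.104% (0.0184 to 0.590) and 1.49% (0.757 to 2.91). The difference of the means was 0.480 points (exact permutation p = 0.667, smallest possible 0.333). Its sign turned without homozygous brain 1 (-0.0236 points) and without heterozygous brain 1 (-0.213 points).

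**Figure D2:**
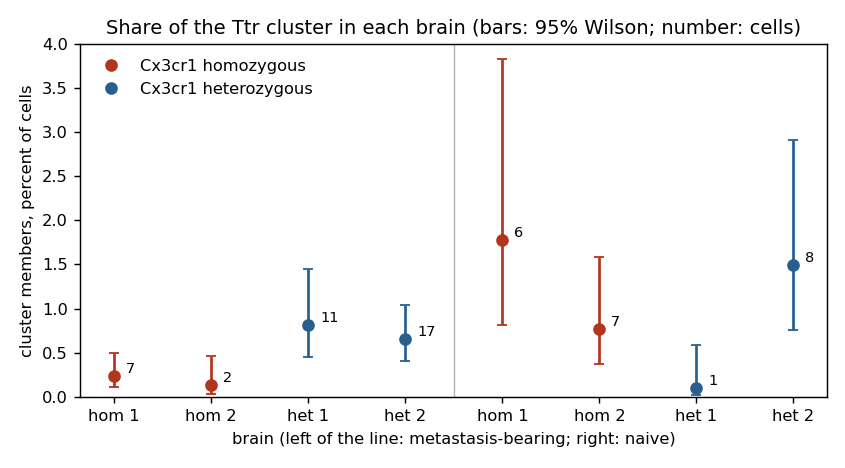
Members as percent of the cells of each brain (y axis), for homozygous and heterozygous brains, metastasis-bearing left of the line and naive right of it; bars are 95% Wilson intervals and numbers are member counts. Metastasis-bearing homozygous brains lie below the heterozygous ones, at 0.129 and 0.239% against 0.651 and 0.812%, while naive brains run from 0.104 to 1.78%.

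Metastasis-bearing brains had a mean share of 0.458 ± 0.326% and naive brains of 1.04 ± 0.752% (SD, n = 4 each). The difference of -0.579 points lay within the spread of the brains (exact permutation p = 0.286, smallest possible 0.0286). The 2 states overlapped. Raw UMIs per member, compared as log2 of each brain's median, differed by -0.31 (exact permutation p = 0.6), and without Tmem212-positive cells by -0.06. The sign of that difference turned without metastasis-bearing heterozygous brain 2 (0.02).

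Ttr made up less of the RNA of Ttr-high cells in metastasis-bearing brains. Brain medians of its percent of corrected UMIs were 11.9 and 25.2 in homozygous and 34.7 and 12.7 in heterozygous metastasis-bearing brains. In naive brains they were 40.4 and 36.5 in homozygous and 43.5 and 36.7 in heterozygous brains. All 4 metastasis-bearing values lay below all 4 naive ones. The naive cluster was chosen by its highest mean Ttr, so Ttr set between the states is a description. The states overlapped once cells with a leukocyte or cycling UMI were left out: the medians were then 18.7 in homozygous brain 1 and 40.5 and 35.6 in heterozygous brains, against 40.4, 38.1, 43.5 and 33.8 in naive brains. The 2 tables were corrected apart, so levels are set side by side with no test. In the 9 Ttr-high barcodes present in both, the median of all genes was 0.02 higher (log2) in the metastasis-bearing table. The 5th to 95th percentile of the genes ran from -0.43 to 0.65.

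Among secreted carriers, the summed level of Ttr in Ttr-high cells was 146110 and 251469 CPM in homozygous and 330666 and 199201 CPM in heterozygous metastasis-bearing brains. In naive brains it was 389058 and 367929 CPM in homozygous and 434626 and 363778 CPM in heterozygous brains. The states did not overlap in Ttr, by which the naive cluster was chosen, and the same barcodes differed by -0.06 (log2). 1500015O10Rik, which encodes the secreted peptide precursor augurin, had 4722, 5026, 4371 and 3694 CPM in metastasis-bearing brains, against 8165, 7484, 9107 and 5738 CPM in naive brains. In such lists of 4, homozygous 1 and 2 come before heterozygous 1 and 2.

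Folr1 was lower without overlap too, at 1264, 1571, 1806 and 1283 CPM in metastasis-bearing brains and 2231, 2333, 2525 and 2006 CPM in naive brains. The same barcodes differed in Folr1 by 0.17 (log2) in the opposite direction. Enpp2 overlapped, with 13901, 28932, 23537 and 17316 CPM in metastasis-bearing brains and 31431, 29258, 19116 and 25298 CPM in naive brains. So did Kl, a co-receptor for fibroblast growth factors, with 665, 2105, 1595 and 1276 CPM against 1912, 1912, 1443 and 1690 CPM.

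**Figure D3:**
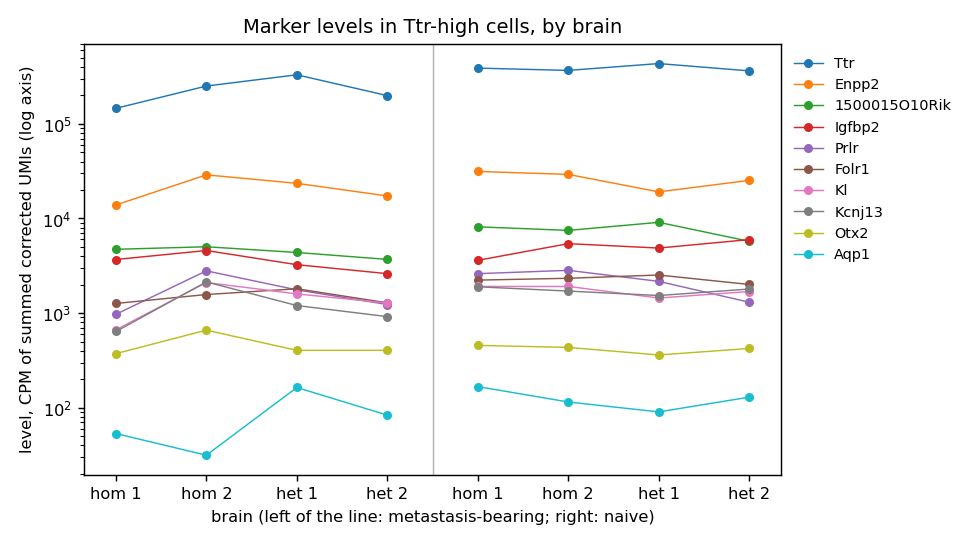
Level of 10 epithelial genes in Ttr-high cells (CPM of summed corrected UMIs, log axis) in each brain, metastasis-bearing left of the line and naive right of it; lines join the brains of a state for each gene and have no time order. Ttr, Folr1 and 1500015O10Rik are lower in all 4 metastasis-bearing than in all 4 naive brains, while the other 7 genes overlap.

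Most other epithelial genes overlapped between the states. With genes over a mean of 20 CPM, 128 of 4327 (2.96%) were lower in every metastasis-bearing than in every naive brain, and 490 (11.3%) were higher. The further choroid plexus list had 1 of 16 lower and 0 higher, with a median difference of -0.47 in log2(CPM + 10), while the median over all genes was 0.50. Transport lists showed as little. Of 23 ion and water transport genes 1 was lower and 0 higher (median -0.29), and of 17 vitamin, hormone and solute transporters 2 were lower and 1 higher (median -0.04). Of 21 carriers and secreted proteins 3 were lower and 1 higher (median -0.21), and of 7 junction genes 0 (median -0.45). Of 20 motile cilium genes and of 11 roof plate and choroid plexus transcription factors 0 moved without overlap (medians -0.08 and 0.30).

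The scaling bears on these counts, since Ttr holds a large part of each total. With Ttr left out of the total, 447 of 5422 genes (8.24%) were higher and 294 (5.42%) lower, with a median of 0.44. The further choroid plexus list then had 3 of 16 lower and a median of -0.79, and ion and water transport 5 of 23 lower and a median of -0.61.

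Interferon-stimulated genes, which encode antiviral proteins and their regulators, had higher levels in metastasis-bearing brains. Of 30 such genes over the limit, 15 were higher without overlap in metastasis-bearing brains and 0 lower, beside 11.3% of all genes. All 30 differences were positive and their median was 2.75. In 20 of the 30 every naive brain was at 0, so these could not come out lower. They passed the level limit through metastasis-bearing brains alone. With those set at 3 corrected UMIs over the naive group (12.5 CPM), which is a setting and no bound, the median was 2.87. The same barcodes differed by a median of -0.05 over this list between the tables.

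Ifi27l2a, a small interferon-induced mitochondrial protein, had 5015, 691, 173 and 5567 CPM in metastasis-bearing brains against 0, 0, 0 and 11.7 CPM in naive brains. It had a UMI in 18 of 25 cells against 1 of 22. Ifitm3, which blocks virus entry, had 2554, 1257, 384 and 3688 CPM against 15.2, 12.7, 90.2 and 23.5 CPM. Every metastasis-bearing brain lay above every naive brain for both genes, and heterozygous brain 1 was the lowest of the 4.

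Ifit1 and Ifit3, which encode proteins that bind viral RNA, were at a corrected 0 in all naive Ttr-high cells, and so were Isg15 and Irf7. Such zeros are no bound on the raw level, so no fold is given. Ifit1 had 412, 62.8, 279 and 314 CPM in metastasis-bearing brains and a UMI in 16 of 25 cells. Ifit3 had 399, 126, 125 and 814 CPM in 14 of 25 cells. Isg15, a ubiquitin-like modifier, had 66.5, 314, 57.6 and 532 CPM in 12 of 25 cells, and Irf7, an interferon regulatory factor, 319, 220, 19.2 and 455 CPM in 15 of 25 cells. Not all members of the list moved: Ifi27 had 652, 597, 1230 and 885 CPM against 804, 803, 631 and 915 CPM, and Bst2 overlapped between the states.

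MHC class I genes, whose products show peptides to CD8 T cells, formed the next group. Of 18 genes 10 were higher without overlap and 1 was lower, beside 11.3% and 2.96% of all genes. The median was 2.40 (2.47 by the same mix of measures, and 0.04 in the same barcodes). In 9 of the 18 every naive brain was at 0, so these could not come out lower. The summed list overlapped, at 7582, 3707, 1556 and 7715 CPM in metastasis-bearing and 1548, 2129, 1713 and 1561 CPM in naive brains, with heterozygous brain 1 inside the naive range. The lower gene was the chaperone gene Calr, at 452, 723, 413 and 641 CPM in metastasis-bearing brains and 850, 1326, 812 and 880 CPM in naive brains. H2-D1 had 1370, 440, 86.5 and 949 CPM against a corrected 0 in every naive brain. H2-K1 had 1876, 346, 76.9 and 1167 CPM against 0, 0, 0 and 11.7 CPM.

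B2m, the light chain shared by MHC class I molecules, showed the contrast cell by cell. Corrected UMIs were 2, 4, 5, 37 and 53 in the 5 cells of metastasis-bearing homozygous brain 1 and 7 and 20 in the 2 cells of brain 2. They were 0 to 5 in the 7 cells of heterozygous brain 1 and 0 to 38 in the 11 cells of heterozygous brain 2. In naive brains 21 of 22 cells were at 0 and 1 cell had 1 UMI. By brain this gave 1344, 848, 125 and 1308 CPM in metastasis-bearing and 15.2, 0, 0 and 0 CPM in naive brains.

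A 0 here is a corrected 0, and limits given for counts of 0 cover corrected UMIs only. These limits pool cells over brains and leave out the spread between brains. The correction brings each cell to a common depth, and a deep cell with fewer UMIs of a gene than its table's model predicts can be set at 0. Outside the clusters B2m had a UMI in 99.8% of cells in both tables. In the same barcodes B2m differed by 0.19 (log2) between the tables. The 2 shared barcodes led by naive hashtags had 11 and 0 B2m UMIs in the metastasis-bearing table and 7 and 0 in the naive one.

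Promoters of Ifit1, Ifit3 and B2m are shown because their RNAs separate the states. Capitals mark TTTC, any 2 bases and TTTC on either strand, the core of the interferon-stimulated response element. Each stretch is the 250 bases before the RefSeq start on GRCm38.p6, plus strand: Ifit1 at chr19:34640639-34640888, Ifit3 at chr19:34583279-34583528 and B2m at chr2:122147437-122147686.
Ifit1: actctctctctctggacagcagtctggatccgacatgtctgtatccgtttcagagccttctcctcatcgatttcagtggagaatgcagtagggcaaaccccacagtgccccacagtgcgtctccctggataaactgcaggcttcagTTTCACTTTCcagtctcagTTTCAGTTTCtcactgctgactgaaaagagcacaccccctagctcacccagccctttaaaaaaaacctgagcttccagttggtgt
Ifit3: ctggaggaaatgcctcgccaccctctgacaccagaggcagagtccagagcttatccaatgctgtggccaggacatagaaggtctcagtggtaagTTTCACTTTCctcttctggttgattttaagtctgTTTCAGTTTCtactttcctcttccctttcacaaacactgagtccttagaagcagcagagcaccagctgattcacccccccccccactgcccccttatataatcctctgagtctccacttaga
B2m: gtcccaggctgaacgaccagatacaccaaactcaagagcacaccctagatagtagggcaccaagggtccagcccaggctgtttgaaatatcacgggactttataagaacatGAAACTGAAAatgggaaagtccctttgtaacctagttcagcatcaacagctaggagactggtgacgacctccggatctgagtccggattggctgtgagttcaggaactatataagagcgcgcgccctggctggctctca
Over RefSeq windows from 250 bases before to 50 after the start, these letters stood in 943 of 27025 promoters (3.49%). They stood in 18 of 30 promoters of the interferon list (60.0%), in 5 of 18 of the MHC class I list (27.8%) and in 0 of 12 of the further choroid plexus list.

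Leukocyte RNA moved with the metastasis-bearing cells. All 6 genes of the general leukocyte list passed 20 CPM there, with brain sums of 0, 4367, 29 and 1462 CPM, while all 6 were at 0 in every naive brain. Monocyte genes gave 0, 8576, 0 and 462 CPM, led by Lyz2, and were at 0 in naive brains. A UMI of the leukocyte list stood in 9 of 25 cells against 0 of 22 in naive brains, and a UMI of the cycling list in 9 of 25 against 2 of 22. Their part in the differences was tested only by leaving these cells out. Without all of these, 10 cells of 3 metastasis-bearing brains and 20 cells of 4 naive brains were left, and homozygous brain 2 dropped out.

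Interferon-stimulated genes were higher in these remaining cells too. Of 31 genes 19 were higher without overlap and 0 lower (median 3.51), beside 6.46% of all genes higher and 5.2% lower. Genes at 0 in every naive brain could again not come out lower. Summed interferon-stimulated genes per cell lay at 23674 and 35495 CPM in the 2 cells of homozygous brain 1, between 1561 and 6486 CPM in 5 cells of heterozygous brain 1 and between 3031 and 31458 CPM in 3 cells of heterozygous brain 2. The 20 naive cells lay between 277 and 2315 CPM. Lowest values of heterozygous brain 1 fell inside the naive range, and both values of homozygous brain 1 were above it.

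MHC class I was less even in these cells. Of 19 genes 6 were higher and 1 lower (median 2.42), beside 6.46% of all genes higher and 5.2% lower. The summed level per cell, though, had a median of 1527 CPM in metastasis-bearing and 1699 CPM in naive cells. It stood at 15426 CPM in homozygous brain 1, 1334 CPM in heterozygous brain 1 and 8489 CPM in heterozygous brain 2, against 1511, 2130, 1713 and 1582 CPM in naive brains. Heterozygous brain 1 lay below every naive brain.

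**Figure D4:**
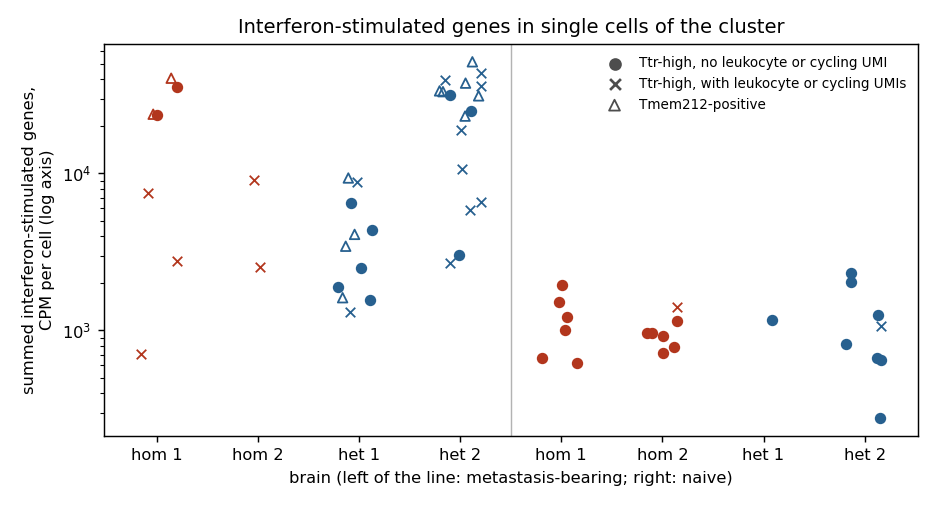
Summed interferon-stimulated genes per cell (CPM, log axis) for members of each brain, metastasis-bearing left of the line and naive right of it. Dots are Ttr-high cells with no leukocyte or cycling UMI, crosses are Ttr-high cells with such UMIs and triangles are Tmem212-positive cells; naive cells stay between 277 and 2315 CPM, and Tmem212-positive cells of heterozygous brain 2 reach 51422 CPM.

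Tmem212-positive cells were also rich in these transcripts and followed their brains. Their summed interferon-stimulated genes lay at 23836 and 40407 CPM in homozygous brain 1, between 1616 and 9354 CPM in heterozygous brain 1 and between 23184 and 51422 CPM in heterozygous brain 2. Heterozygous brain 1 was thus the lowest for both kinds of cells. The difference between brains was not tested, since cells of a brain are not replicates.

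Keeping barcodes of both tables removed the separation. With all deposited Ttr-high cells, 0 of 34 interferon-stimulated genes and 0 of 18 MHC class I genes were higher without overlap, with medians of 1.55 and 1.53, beside 6.58% of all genes higher and 2.76% lower. Placing each barcode by its leading hashtags gave 16 of 31 and 10 of 18 (13.8% of all genes higher, 3.61% lower). Without metastasis-bearing heterozygous brain 1 the count for the interferon list was 23 of 33 (17.0% of all genes higher, 3.93% lower), and without homozygous brain 2 it was 21 of 28 (17.2% higher, 4.61% lower). Without the single cell of naive heterozygous brain 1 it was 17 of 34 (13.9% higher, 4.38% lower). Without cells that held a Ptprc UMI it was 21 of 27 (16% higher, 4.03% lower), and with Tmem212-positive cells kept in it was 22 of 37 (17.2% higher, 3.74% lower).

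Inflammatory genes and chemokines were patchy between brains. Of 18 acute phase and inflammatory genes 4 were higher without overlap (median 2.01, beside 11.3% of all genes higher), among them Cebpb, a transcription factor of the acute phase, at 186, 408, 86.5 and 257 CPM against 0. Lcn2, an iron-binding acute phase protein, had 1224, 0, 9.6 and 83.4 CPM against 0 in naive brains, so a single brain carried most of it. Of 9 chemokines 2 were higher (median 2.21), against the same 11.3%. In 15 of the 18 inflammatory genes and 6 of the 9 chemokines every naive brain was at 0, so these could not come out lower. Ccl2, which attracts monocytes, had 160, 440, 48.0 and 276 CPM against 0, 0, 0 and 11.7 CPM.

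Cxcl10, which attracts cells with the receptor Cxcr3, overlapped: 652, 1791, 0 and 70.6 CPM in metastasis-bearing brains and 0 in naive brains. It had a UMI in 7 of 25 Ttr-high cells and in 7 of 12 Tmem212-positive cells (2073 CPM). In naive brains 0 of 22 cells had one, which allows up to 13.6% with cells pooled over brains. Cells outside the clusters carried Cxcl10 in 33.1% of the metastasis-bearing and 38.7% of the naive table. Cx3cr1 was nearly absent, at 0, 188, 9.6 and 0 CPM against 0, and its ligand gene Cx3cl1 had 53.2, 0, 9.6 and 12.8 CPM against 0, 12.7, 90.2 and 11.7 CPM. MHC class II genes had 0 of 6 without overlap, beside 11.3% of all genes higher and 2.96% lower. Cd74, the class II invariant chain, stood at 0, 251, 19.2 and 757 CPM against 0.

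Immediate early genes, which also respond to tissue dissociation, were higher in 13 of 22 cases without overlap and lower in 0 (median 2.61), beside 11.3% and 2.96% of all genes. In 15 of the 22 every naive brain was at 0, so these could not come out lower. The same barcodes shifted by 0.46 for this list, more than for any other list compared. Fos had 545, 942, 211 and 64.1 CPM against 0, 0, 0 and 23.5 CPM, and Jund 399, 534, 288 and 295 CPM against 15.2, 38.2, 90.2 and 23.5 CPM. Without cells that carried leukocyte or cycling UMIs, 0 of 8 genes over the limit were separated (median 1.14). Of all genes 6.46% were higher and 5.2% lower there.

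Nuclear genes of the respiratory chain ran the other way. Of 32 genes 20 were lower without overlap in metastasis-bearing brains and 0 higher, beside 2.96% of all genes lower, with a median of -0.52 (-0.18 in the same barcodes). Cox8a, a subunit of cytochrome c oxidase, had 1437, 1571, 1921 and 1982 CPM against 2201, 2473, 3246 and 2417 CPM. Cox4i1 had 1410, 1696, 1998 and 1584 CPM against 2155, 2422, 2976 and 2476 CPM. The count was 24 of 32 in cells with no leukocyte or cycling UMI, beside 5.2% of all genes lower. With Ttr left out of the total it was 26 of 32, beside 5.42%, and with all deposited cells 18 of 32, beside 2.76%.

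Mitochondrially encoded genes mostly overlapped. Of 13 genes 1 was lower without overlap (median -0.28), beside 2.96% of all genes. mt-Co3 had 6425, 10681, 14459 and 15520 CPM in metastasis-bearing brains and 22401, 19263, 11722 and 21461 CPM in naive brains. The mitochondrial percent of Ttr-high cells had a median of 5.41 and 7.35.

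**Figure D5:**
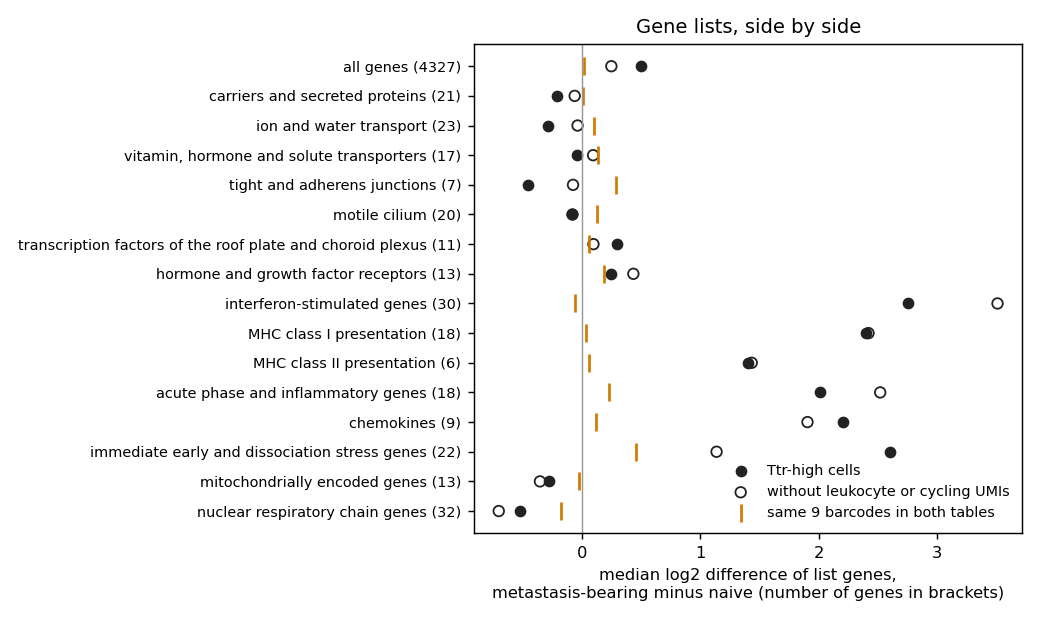
Median difference in log2(CPM + 10), metastasis-bearing minus naive, over the genes of each list (numbers of genes in brackets), in all Ttr-high cells (filled) and in those with no leukocyte or cycling UMI (open); ticks show the same 9 barcodes in both tables. Interferon and MHC class I lists lie at 2.75 and 2.40, against 0.50 for all genes and ticks of -0.05 and 0.04.

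Genotype effects on expression could not be tested with barcodes of both tables left out, because metastasis-bearing homozygous brain 2 kept 2 cells and naive heterozygous brain 1 kept 1 cell. With all deposited members of metastasis-bearing brains (8 and 5 cells in homozygous, 14 and 23 in heterozygous brains), limma called 0 of 6241 genes (0.0%) at an adjusted p under 0.05. An unadjusted p under 0.05 was found for 95 genes, 24 of them higher in homozygous brains. Without Tmem212-positive cells it called 0 of 5528 genes (0.0%), with 75 at an unadjusted p under 0.05.

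None of the genes named next passed the adjusted threshold (limma adjusted p = 0.999 for each). The smallest p belonged to Thbs1, which encodes the matrix protein thrombospondin, with 306 and 323 CPM in homozygous and 4.99 and 35.9 CPM in heterozygous brains (log2 difference 3.63 ± 0.63 SE). Bgn, which encodes the matrix proteoglycan biglycan, had 33.1 and 12.9 CPM in homozygous and 214 and 111 CPM in heterozygous brains (-2.39 ± 0.56). Pdgfd, a growth factor, had 49.6 and 90.5 CPM in homozygous and 9.98 and 5.99 CPM in heterozygous brains. The other genes with the smallest p were Gm10714, Nt5c, Msmo1, Pvalb and Prex2, and Rasa1 and Coasy.

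Cilium genes moved with the number of Tmem212-positive cells, which was 2 of 8 and 0 of 5 in homozygous and 4 of 14 and 10 of 23 in heterozygous brains. Dnah5 had 49.6 and 0 CPM in homozygous and 115 and 222 CPM in heterozygous brains, and Hydin had 66.2 and 12.9 against 120 and 183 CPM. Both fell under the level limit once Tmem212-positive cells were left out. The list had 4 of 29 genes at an unadjusted p under 0.05, all lower.

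None of the epithelial markers passed the test either (limma adjusted p = 0.999 for each). Ttr in Ttr-high cells of all deposited barcodes differed by -0.09 ± 0.34 (SE, log2), Enpp2 by 0.29 ± 0.39, Folr1 by 0.14 ± 0.33 and Kl by -0.16 ± 0.46. The 2 interferon genes with the smallest p were Mx1 (116 and 38.8 CPM in homozygous, 0 and 17.96 CPM in heterozygous brains) and Ifitm1 (49.6 and 0 against 44.9 and 213 CPM). B2m had 1274 and 478 CPM in homozygous and 130 and 1904 CPM in heterozygous brains. The spread within a genotype was as large as that between genotypes.

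Without a test, the genotypes could be set side by side in unshared Ttr-high cells. In metastasis-bearing brains 1057 of 5508 genes (19.2%) were higher and 430 (7.81%) lower in both homozygous than in both heterozygous brains. Interferon-stimulated genes had 1 of 37 higher and 4 lower, and mitochondrially encoded genes had 11 of 13 lower and 0 higher (median -0.77). With all deposited cells that last count was 0 of 13, beside 10.6% of all genes lower. In naive brains 613 of 3241 genes (18.9%) were higher and 532 (16.4%) lower. Nuclear respiratory genes had 16 of 32 lower and 2 higher there (median -0.20), and in metastasis-bearing brains 6 of 32 lower and 1 higher (median -0.13). The naive values rest on a heterozygous brain with a single cell.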

How the data were processed

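The RNA tables hold, per the submitters' processing notes and the metadata columns, natural log values that the authors made with Cell Ranger 3.1 and Seurat 3.1.1 on mm10: ln of 1 plus a UMI count corrected for depth by the SCT model, separately in each of 2 tables. Undoing the log gave whole numbers for all values within 1e-06. The deposited metadata hold raw RNA, antibody tag and hashtag UMI counts per cell, the authors' clusters, gates and hashtag calls. The hashtag margin is a score deposited by the authors, the difference between the first and second hashtag, and was not used for selection. Cells were the authors' singlets, and no further doublet caller was run.

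Corrected UMIs were summed per brain and scaled to CPM. Differences are in log2(CPM + 10) over genes with a mean above 20 CPM. Genotype fits used limma 3.58.1 (R 4.3.3) with a variance trend and Benjamini-Hochberg adjustment, where every brain had at least 5 cells, and the fit was tested on simulated data. Shares were compared by two-sided exact permutation tests over brains (enumerated in Python 3.11.15). Brains are the replicates, numbered by hashtag, and nothing ties them across groups. Expression in the 2 tables was set side by side with no test. "Without overlap" means that every brain of a group lay beyond every brain of the other.

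The members and gene lists were chosen with earlier results of these data known. Named genes were the given and further markers, the leading members of each list and the 10 smallest p of the genotype fit. Others in the comparison of metastasis-bearing with naive brains, and the split by Tmem212, were chosen after their values were seen. Promoters came from RefSeq, GRCm38.p6. Alternatives were other pseudocounts, filters, scalings and cell sets, and leaving out each brain; the cell sets without Tmem212-positive cells, without leukocyte or cycling UMIs and placed by hashtag, and Ttr left out of the total, were chosen after seeing the data. Levels of single surface proteins were not used here. Antibody tag UMI totals and the authors' CD45 and CD11b gates were given as a description.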

Additional observations from a re-analysis of the deposited data

Results flagged for a closer look

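Of 94 groups of 4 brains examined in Ttr-high cells, 11 held a brain far from the other 3 (11.7%). The limit used flags about 1 in 20 groups by chance when values are normally distributed. That rate cannot be set against the count here. In some naive groups the other 3 brains had no corrected UMI, so any value in the remaining brain was flagged. Other flagged brains had few cells. The flags are therefore a description, and no excess over chance is claimed. All values are CPM. Among metastasis-bearing brains the brain that stood apart was homozygous brain 2, which has 2 such cells. It had 1602 CPM of the chloride channel gene Clic6, 660 CPM of the homeobox gene Otx2, 817 CPM of the serotonin receptor gene Htr2c and 6220 CPM of summed chemokines.

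Among naive brains, heterozygous brain 1, with a single cell, had a low Clic6 value of 541 CPM and a high Ifitm3 value of 90.2 CPM. Homozygous brain 1 had 15.2 CPM of B2m and 45.5 CPM of summed MHC class II genes, where the other 3 were at 0. Heterozygous brain 2 had 11.7 CPM of H2-K1 and 11.7 CPM of Ifi27l2a, where the other 3 were at 0. It also had the lowest sum of vitamin, hormone and solute transporters, at 4975 CPM.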

How the results depend on the processing

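The share difference between genotypes kept its sign in metastasis-bearing brains under all 10 alternatives, from -0.628 to -0.467 points when a brain was left out. In naive brains it kept its sign under 8 alternatives and reversed without homozygous brain 1 (-0.0236) or heterozygous brain 1, with a range of -0.213 to 1.17 points. The share difference between metastasis-bearing and naive brains kept its sign under 14 alternatives (-0.890 to -0.331 when a brain was left out). Raw UMIs per cell reversed with the mean in place of the median (0.0491) and without metastasis-bearing heterozygous brain 2, with a range of -0.570 to 0.0233 on the log2 scale. The genotype fit called 0 genes by limma under 13 alternatives. It called 0 to 3 when a brain was left out, with 3 without heterozygous brain 2. Without Tmem212-positive cells it called 0 to 25, with 25 without heterozygous brain 2 and 4 without heterozygous brain 1. These fits leave a genotype with a lone brain, assumed to vary like the other genotype, and the cause was not tested. The naive genotype fit was not run under any setting, since heterozygous brain 1 has 1 cell, nor was the metastasis-bearing fit without Ptprc-positive members. No paired analysis was possible because the labels give the brains no replicate numbers.

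Limits are the few cells per brain, 2 brains per genotype, a correction made separately in each table, barcodes listed in both tables and a gradient aimed at immune cells. Fewer cells of a type and fewer recovered by the dissociation cannot be told apart. All brains shared a single pooled preparation.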

Other observations

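Of the 2 barcodes that were members in both tables and led by naive hashtags, 1 had 23 Ifi27l2a UMIs in the metastasis-bearing table and 16 in the naive one. Its summed interferon-stimulated genes stood at 4187 and 4605 CPM, above the highest unshared naive cell (2315 CPM). The other had 0 Ifi27l2a UMIs in both tables and 1166 and 1250 CPM. The Tmem212-positive barcode led by naive hashtags, a member in the metastasis-bearing table alone, had 38213 CPM there. These barcodes belong to no brain that the tables agree on.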
